A study of Mus musculus with 3 samples.

Results

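The genes described here are 10 members of the vascular endothelial growth factor (VEGF) family and its receptors: Figf, Vegfa, Vegfb, Vegfc, Pgf, Kdr, Flt1, Nrp1, Nrp2 and Angpt1. Figf is the array's older name for Vegfd, which encodes VEGF-D. All non-control spots with these gene names were taken, which gave 10 genes of 27745, 21 probes of 41174 and 48 spots of 43379 on each array. The set was chosen by measured values, since Figf had been seen to fall in light polysomes, so the ratios of the members between the siRNAs are a description and carry no test.

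Stromal cells from lymph nodes of BALB/c mice, grown in culture, received either Eif4g3 siRNA or control siRNA by lipid transfection, each at 400 pmol, and were harvested at 48 h, with fresh medium at 24 h. Eif4g3 encodes eIF4G3, one of the eIF4G proteins, which link the cap-binding protein of an mRNA to the ribosome. The cells of 7 plates per siRNA were pooled, and a continuous 10% to 60% sucrose gradient separated mRNAs by the ribosomes they carried into a top, a light polysome and a heavy polysome fraction. Each fraction had 1 Agilent 2-colour array, where Cy5 marked the Eif4g3 siRNA cells and Cy3 the control siRNA cells, with dyes never swapped. There was therefore 1 pool per siRNA and 1 array per fraction, no spread between replicates and no p-value, and siRNA cannot be told apart from dye. Ratios within fractions were measured, and RNA from unfractionated cells was not analysed here, so a change in the total amount of an mRNA cannot be told apart from a change in its translation.

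VEGF ligands are secreted dimers that bind receptor tyrosine kinases on endothelial cells. Vegfa is the main driver of blood vessel growth through Kdr (VEGFR-2), while Vegfb and Pgf bind Flt1 (VEGFR-1), and Vegfc and VEGF-D act mainly on lymphatic vessels through Flt4 (VEGFR-3). Neuropilins, encoded by Nrp1 and Nrp2, are co-receptors that bind VEGFs and class 3 semaphorins, and Angpt1 encodes angiopoietin-1, which activates the Tie2 receptor (Tek). In lymph nodes, stromal cells supply such factors to the blood and lymphatic vessels around them.

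The targeted gene was checked first. Eif4g3, read by 2 probes, had log2 ratios (Eif4g3 siRNA over control siRNA) of -0.43 ± 0.16 in the top fraction, -1.06 ± 0.16 in light polysomes and -1.77 ± 0.19 in heavy polysomes. Here and below the error is the scanner software's error for its own ratios, combined over probes, and it does not cover biological variation. The ratios given were recomputed and are drawn towards 0 at dim probes. A ratio within its error here can lie beyond it on the software's scale. For the 2 Eif4g3 probes the software's ratios were -0.72 and -0.88 in the top fraction, where both were dim. They were -1.11 and -1.15 in light polysomes and -1.77 and -1.81 in heavy polysomes. The cells were checked against marker lists as well. Of 17 fibroblastic stromal markers on the array, 13, 14 and 15 were measured in the top, light and heavy fractions, against 4, 9 and 10 of 19 endothelial markers. The fibroblastic markers Lum and Cxcl13 were not well above background on any array. Ccl19 was not measured in light polysomes, and Il7 and Bst1 were not measured in the top fraction. Of pericyte and smooth muscle markers, 5, 6 and 6 of 10 were measured, of epithelial markers 1, 2 and 2 of 8, and of leukocyte markers 1, 4 and 4 of 10. The endothelial markers Pecam1, Cldn5, Erg, Robo4, Sox17 and Xlkd1 (now Lyve1) were not well above background on any array. Vwf, Egfl7, Esam1, Sox18, Cd34, Plvap, Ramp2, Prox1 and Eng were measured in light and heavy polysomes, and Tie1 in heavy polysomes alone. Cdh5 and Tek were above background in heavy polysomes and Emcn in light polysomes, without counting as measured. The summed endothelial signal was 9165 with Eif4g3 siRNA and 7517 with control siRNA in the top fraction, 12208 and 12421 in light polysomes, and 11777 and 10507 in heavy polysomes. The fibroblastic sums were 180395 and 199150, 301325 and 272459, and 291877 and 351618 in the same order, and the pericyte and smooth muscle sums 303952 and 278457, 332830 and 245902, and 391989 and 338088. In light polysomes all 6 measured pericyte and smooth muscle markers had log2 ratios above 0, with a median of 0.36. In the top fraction 3 lay above 0 and 2 below, and in heavy polysomes 3 and 3. Of fibroblastic markers, 2 lay above 0 and 11 below in the top fraction. In light polysomes the numbers were 8 and 6, and in heavy polysomes 7 and 8. Their medians were -0.11, 0.03 and -0.03. Among them Vim alone was past 2-fold, higher in the top fraction (1.05) and in light polysomes (1.14). The part of cell composition in the ratios was not tested. Array brightness differed too: the upper quartile of background-subtracted signal was 39.6 with Eif4g3 siRNA and 40.5 with control siRNA in the top fraction, 686 and 288 in light polysomes and 367 and 1080 in heavy polysomes. All 3 arrays lay on 1 slide, and effects of an array cannot be told apart from those of its fraction.

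Figf was the member with the largest ratio in size on each of the 3 arrays, and it was lower with Eif4g3 siRNA in all 3. It was read by 1 probe at chrX:159746568-159746627 on the plus strand (mm8 build). Its dye-normalised signal was 2743 with Eif4g3 siRNA and 5818 with control siRNA in the top fraction, 6173 and 14140 in light polysomes, and 6730 and 11901 in heavy polysomes. The Eif4g3 siRNA signal was the lower of the pair each time, by similar amounts. The recomputed log2 ratios, which come from a separate normalization, were -1.05 ± 0.23, -1.23 ± 0.23 and -0.85 ± 0.22, or 2.07-fold, 2.34-fold and 1.80-fold lower. The printed signals, here and for other members, are the software's, and for Figf they give -1.08, -1.20 and -0.82. Figf stood 24th from the bottom of 10942 measured genes in the top fraction, 10th of 14094 in light polysomes and 116th of 14402 in heavy polysomes. Values past 2-fold, meaning log2 ratios beyond 1 or -1, were called; the top and light values lie past that limit and the heavy value short of it, all 3 within about 1 spot error of it. Without intensity-dependent (loess) normalization, and centred on the median of measured probes, the 3 values were -1.06, -0.95 and -1.01, so that the light call was lost and the heavy one gained. With no loess and centring on all probes they were -1.03, -0.32 and -1.77, with the same loss and gain; that setting moved the median of all measured genes to 0.03, 0.62 and -0.73.

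After loess normalization, the siRNA ratio of Figf differed little between fractions. Heavy minus top was 0.20 ± 0.31, light minus top -0.18 ± 0.32 and heavy minus light 0.38 ± 0.32 on the log2 scale. The first 2 are within their spot error and heavy minus light is just beyond it. With no loess and centring on all probes, heavy minus light was -1.44 and heavy minus top -0.73, so that the comparison of fractions depends on the normalization. Of the 10657 genes measured on all 3 arrays, 7 had every ratio at or below -0.8, Figf among them; that limit was set after the values were seen.

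**Figure D1:**
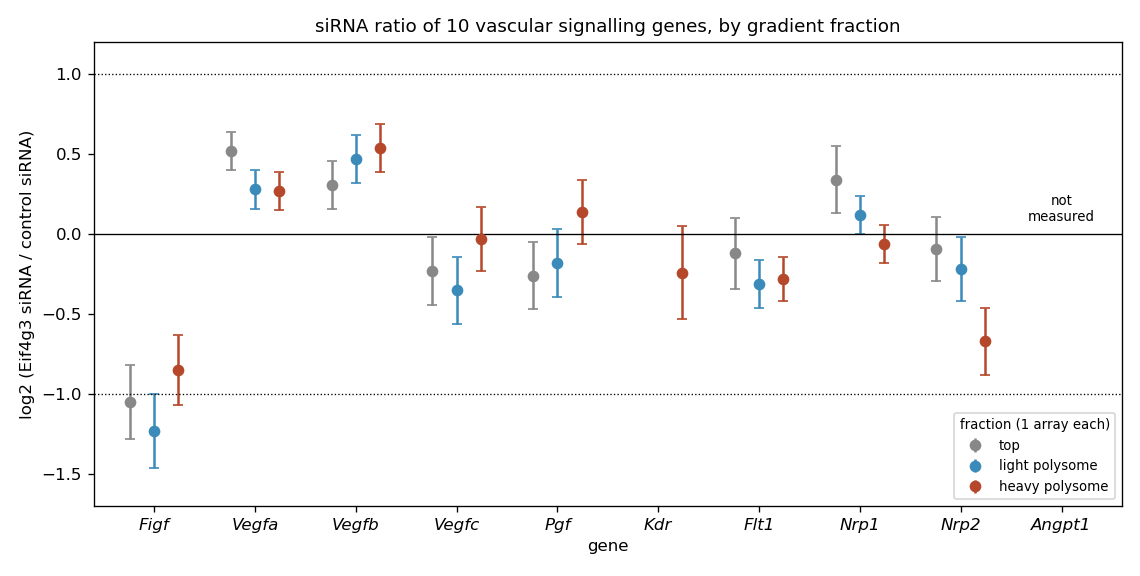
Ratio of the 2 siRNAs, Eif4g3 over control, on the log2 scale (y axis) for each of the 10 genes (x axis), by fraction; each point is 1 array and bars are the software's spot error. Figf lies lowest at -1.05, -1.23 and -0.85, Vegfa and Vegfb lie above 0 in all 3 fractions, and the dotted lines mark 2-fold.

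The DNA before the starts of Figf and Vegfa is shown as a description, and its part in the ratios was not tested. The windows are the 250 bases upstream of the annotated transcript start, from RefSeq on GRCm38.p6, 5′ to 3′ on the gene's strand. Vegfd is at chrX:164373272-164373521 on the plus strand, and the upstream of 2 annotated Vegfa starts is at chr17:46032378-46032627 on the minus strand.
Vegfd: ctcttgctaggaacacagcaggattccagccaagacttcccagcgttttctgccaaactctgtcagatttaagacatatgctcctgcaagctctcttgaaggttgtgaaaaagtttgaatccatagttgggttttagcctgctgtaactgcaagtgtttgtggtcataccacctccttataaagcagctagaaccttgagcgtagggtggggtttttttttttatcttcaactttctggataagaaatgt
Vegfa: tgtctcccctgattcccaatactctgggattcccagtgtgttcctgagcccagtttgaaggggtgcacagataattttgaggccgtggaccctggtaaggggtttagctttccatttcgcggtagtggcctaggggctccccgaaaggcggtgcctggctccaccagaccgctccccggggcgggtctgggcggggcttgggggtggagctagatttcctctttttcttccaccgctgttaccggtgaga

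The Vegfd window was 42.4% G or C and the Vegfa window 59.2%, against a median of 52.4% over 32851 windows in the table. Vegfd had the lowest G and C content of the 11 windows available for 9 members, the others ranging from 59.2% to 76.4% (Vegfb). The first 50 transcribed bases differed likewise, with 40.0% G or C for Vegfd and 76.0% for this Vegfa start, against a median of 56.0%. The core of the hypoxia response element, ACGTG or CACGT when read on the other strand, is shown in capitals where present and was in neither printed window. It occurred in 1 of the 11 member windows, that of the downstream Vegfa start, against 16.6% of all windows. That window lies downstream of the printed Vegfa start, so it can hold sequence transcribed from there. Whether it acts as a promoter was not tested. DNA outside the windows was not searched, so a gene whose window lacks the core can carry it farther upstream. These are descriptions of sequence, and no factor's binding was measured.

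The other ligands stayed within 2-fold after loess normalization; with no loess and centring on all probes, Vegfa at 1.19 and Vegfb at 1.29 passed it in light polysomes, where the median of all genes was 0.62. Vegfa, read by 3 probes, was higher with Eif4g3 siRNA by 0.52 ± 0.12 in the top fraction, 0.28 ± 0.12 in light polysomes and 0.27 ± 0.12 in heavy polysomes, as log2 ratios averaged over the probes. The probes did not agree in light polysomes. They lie on the minus strand of chromosome 17, and in the direction of transcription the first, at chr17:45489008-45489067, gave 0.67 in the top fraction, -0.11 in light polysomes and 0.30 in heavy polysomes. The second, at chr17:45482144-45482203, gave 0.21, 0.53 and 0.08, and was spotted 10 times per array. Its kept spots ranged from 0.12 to 0.26 in the top fraction, from 0.44 to 0.62 in light polysomes and from -0.08 to 0.21 in heavy polysomes. The third, at chr17:45481019-45481078, gave 0.67, 0.42 and 0.44. The order of the fractions thus differed by probe: light was highest for the second, while top was highest for the first and the third.

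Vegfb was higher with Eif4g3 siRNA in all 3 fractions, by 0.31 ± 0.15, 0.47 ± 0.15 and 0.54 ± 0.15 (top, light, heavy) over 2 probes on chromosome 19. Both probes were above 0 on each array, the brighter one at chr19:7049516-7049573 with 0.46, 0.68 and 0.78 and the dimmer one at chr19:7049799-7049858 with 0.16, 0.25 and 0.30. The brighter probe's dye-normalised signal was 6674 with Eif4g3 siRNA and 4611 with control siRNA in the top fraction, 11590 and 6975 in light polysomes, and 4634 and 2620 in heavy polysomes. The Eif4g3 siRNA signal was the higher of each pair.

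Vegfc, the second lymphatic ligand, had a dye-normalised signal of 2095 with Eif4g3 siRNA and 2475 with control siRNA in the top fraction, 5781 and 7440 in light polysomes, and 5226 and 5421 in heavy polysomes. Its log2 ratios of -0.23 ± 0.21, -0.35 ± 0.21 and -0.03 ± 0.20 were below 0, the last within its spot error. Vegfc and Figf are thus both lymphatic ligands read by a single probe, but their ratios differed in size in every fraction. Pgf, which encodes placental growth factor, had 796 and 998 in the top fraction, 572 and 687 in light polysomes, and 724 and 653 in heavy polysomes, in each pair Eif4g3 siRNA before control siRNA. Its ratios were -0.26 ± 0.21, -0.18 ± 0.21 and 0.14 ± 0.20, and heavy minus top was 0.40 ± 0.29. The order of the 2 siRNAs turned between the top and the heavy fraction for Pgf, by values near the spot error.

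Among the receptors, Kdr was barely detected. Of its 2 probes, each spotted 10 times, the one at chr5:76214981-76215040 was measured only in heavy polysomes, where 8 of 9 kept spots were well above background in both channels. Its log2 ratio there was -0.24 ± 0.29, with kept spots between -0.33 and -0.13, and its dye-normalised signal was 31.6 with Eif4g3 siRNA and 55.4 with control siRNA. In light polysomes 4 of 10 spots passed and in the top fraction none of 9, and the other probe passed in no spot. The software's own ratio in heavy polysomes, to which the error and the signals belong, was -0.83. With an offset of 0 the value was -0.55, and with plain background subtraction -0.61. With no filter on dim probes it was -0.10. With no loess normalization it was -0.39 centred on all probes and 0.36 centred on measured probes, the only alternative above 0.

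Flt1 was detected by 1 of its 5 probes in the top fraction and by 3 of them in the light and heavy fractions. Its ratios were -0.12 ± 0.22, -0.31 ± 0.15 and -0.28 ± 0.14. The brightest probe, at chr5:147872564-147872623, had dye-normalised signals of 331 with Eif4g3 siRNA and 403 with control siRNA in the top fraction, 308 and 494 in light polysomes, and 367 and 545 in heavy polysomes. The Eif4g3 siRNA value was the lower of each pair. The 3 measured probes spanned -0.48 to -0.13 in light polysomes and -0.49 to -0.14 in heavy polysomes, all below 0. Without loess normalization, centred on measured probes, the light value was -0.65 and the heavy value 0.03. An offset of 50 added to each signal draws ratios of such dim probes towards 0, so their fold changes are understated.

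The neuropilins differed from each other. Nrp2, one of the brightest members, had dye-normalised signals of 6285 with Eif4g3 siRNA and 6496 with control siRNA in the top fraction, 13539 and 15544 in light polysomes, and 14688 and 24464 in heavy polysomes. The gap was widest in heavy polysomes, where the log2 ratio was -0.67 ± 0.21 (1.60-fold lower), after -0.09 ± 0.20 in the top fraction and -0.22 ± 0.20 in light polysomes. Heavy minus top was -0.59 ± 0.30 and heavy minus light -0.46 ± 0.30, both beyond their spot error and under 2-fold. With no loess and centring on all probes they were -1.46 and -2.25, and the heavy ratio -1.54, all past 2-fold, while the median of all genes moved as given for Figf. The light value turned to 0.09 without loess normalization, centred on measured probes, and heavy minus light then was -0.88. Nrp2 was read by 1 probe at chr1:62752831-62752890, on the plus strand, and lay at percentile 2.1 of all measured genes in heavy polysomes.

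Nrp1 gave 0.34 ± 0.21, 0.12 ± 0.12 and -0.06 ± 0.12, but from different probes. The first along the gene, at chr8:131246199-131246258 on the plus strand, was the only one measured in the top fraction and gave 0.34, 0.05 and 0.43. The second, at chr8:131354463-131354522, gave 0.29 in light and -0.33 in heavy polysomes, and the third, at chr8:131388840-131388899, gave 0.03 and -0.28. In heavy polysomes the probes therefore lay on both sides of 0, and the mean hides that. Heavy minus top, from the shared first probe alone, was 0.09 ± 0.30.

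Angpt1 was not measured on any array by either of its 2 probes. The one at chr15:42257097-42257156 was well above background with control siRNA alone in light and heavy polysomes, where its log2 ratios were -0.12 with a spot error of 0.60 and -0.13 with one of 0.57. Those errors belong to the software's own ratios, which were -1.32 and -0.74 and lie beyond them. With the probe above background in control siRNA alone, no direction is given for Angpt1.

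Counted over the measured members, 1 of 8 passed 2-fold in the top fraction, 1 of 8 in light polysomes and 0 of 9 in heavy polysomes, Figf being the 1 each time. Over all measured genes 0.695%, 0.688% and 0.812% did. The median member ratio was -0.10, -0.20 and -0.06, against 0.002, 0.015 and -0.014 over all genes. Of the 8 members measured on all 3 arrays, 4 were below 0 throughout (Figf, Vegfc, Flt1 and Nrp2) and 2 above 0 throughout (Vegfa and Vegfb); over all genes each share was 20.0%. With no loess and centring on all probes, the signs of Vegfa, Vegfb and Pgf in heavy polysomes turned, to -0.62, -0.37 and -0.78, and those of Vegfc, Pgf and Nrp2 in light polysomes to 0.53, 0.52 and 0.71. Relative to the medians of all genes in that setting, Vegfa and Vegfb still lay above in heavy polysomes, Vegfc and Pgf below in light polysomes, and Nrp2 above in light and Pgf below in heavy polysomes, both on the other side. In the differences between fractions no member passed 2-fold after loess normalization, where 1.51% of all genes did for heavy minus top, 1.06% for light minus top and 0.731% for heavy minus light. These values chose the set in part, and nothing is read from the counts.

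The place of each mRNA in the gradient is a second readout, which the choice of genes did not use: the signal in heavy polysomes over that in the top fraction within one siRNA, after normalization between arrays. It is relative to each array's own distribution of signals, since equal amounts of RNA were labelled from every fraction, and it has no replicate either. The 2 siRNA channels are not independent estimates, for they share each spot. Past 2-fold were 5 of 8 members with Eif4g3 siRNA and 4 of 8 with control siRNA, against 34.8% and 36.0% of all genes. Nrp1 and Flt1 enter these counts through the 1 probe of each that was bright enough in the top fraction to count as measured. With no filter on dim probes, 3 members passed with either siRNA, so nothing is read from the counts.

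Vegfb was lower in heavy polysomes than in the other 2 fractions. Its heavy over top log2 value was -1.38 with Eif4g3 siRNA and -1.61 with control siRNA, and heavy over light was -1.08 and -1.15, at percentiles 1.4 and 3.6 of all genes. Both Vegfb probes ran this way, at -1.68 and -1.07 with Eif4g3 siRNA and at -1.99 and -1.22 with control siRNA for heavy over top. Light over top was smaller, at -0.30 with Eif4g3 siRNA and -0.45 with control siRNA. With each channel scaled to its 75th percentile it turned, to 0.39 and 0.13 for the 2 probes with Eif4g3 siRNA and 0.23 and 0.09 with control siRNA. The order of the top and light fractions thus depends on the normalization. Pgf was lower in heavy polysomes as well, by -1.33 and -1.72, but most of that step lay between the top and the light fraction, at -1.47 and -1.56. Flt1 gave -1.19 and -0.82 from its one shared probe.

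Vegfa lay towards heavy polysomes, at 1.17 with Eif4g3 siRNA and 1.41 with control siRNA, but its probes disagreed widely. The second probe in the direction of transcription gave 2.82 and 2.95, which is 7.07-fold and 7.72-fold, the third gave 1.07 and 1.30, and the first gave -0.39 and -0.02. Nrp1 split in the same way. Its first probe gave -2.40 and -2.49, or 5.27-fold and 5.61-fold lower in heavy polysomes. Its other 2 probes, which were not measured in the top fraction, were brighter in heavy than in light polysomes. Their heavy over top values ran the other way, at 1.58 and 1.86 for the second and 1.66 and 1.79 for the third. The third was above background with control siRNA in both fractions. With each channel scaled to its 75th percentile, the second gave -0.30 and -0.09 and the third 0.79 and 0.85. The files do not say which transcript forms each probe reads.

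Figf and Vegfc were spread evenly, at 0.00 and -0.01 with Eif4g3 siRNA and at -0.20 for both with control siRNA. Nrp2 was the member whose place differed most between the siRNAs, at 0.12 with Eif4g3 siRNA and 0.71 with control siRNA; this is its heavy minus top difference in another form. When each channel was instead scaled to its 75th percentile, 3 members passed 2-fold with Eif4g3 siRNA and 5 with control siRNA, the reverse order of the counts above. The values for Figf then were 0.73 and 0.46, for Vegfc 0.76 and 0.50, and for Vegfb -0.93 and -1.23.

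**Figure D2:**
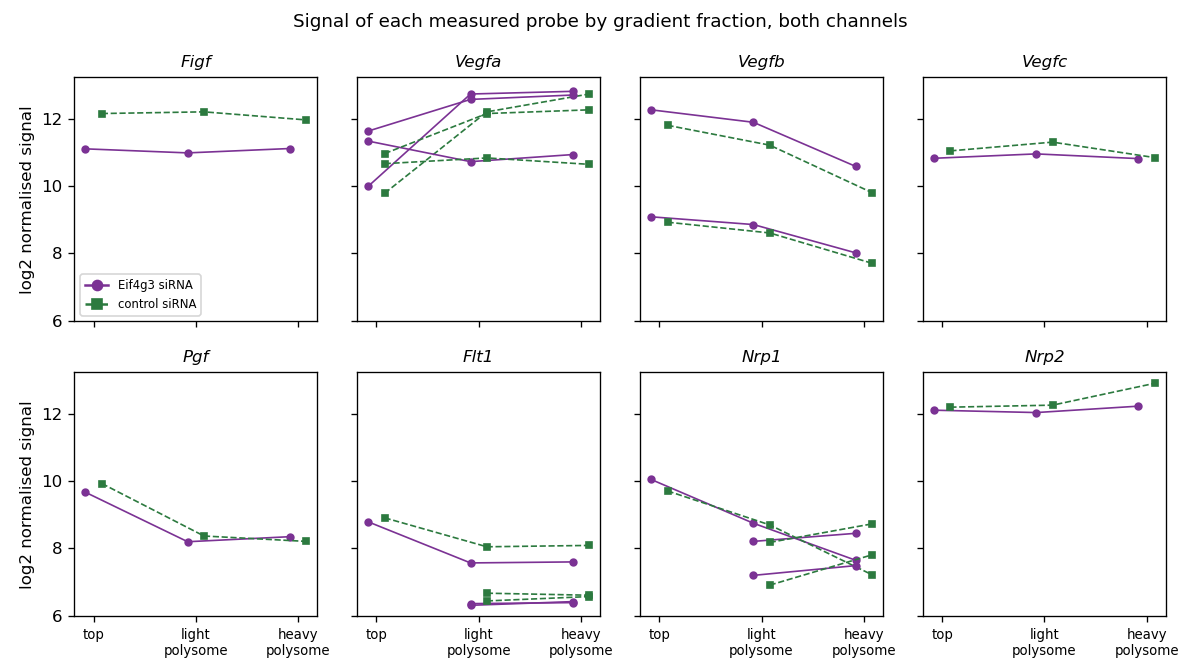
Log2 normalised signal (y axis) of every measured probe of 8 members in the top, light and heavy fractions (x axis), with Eif4g3 siRNA as circles and control siRNA as squares, 1 array per fraction; lines join the points of 1 probe. Figf runs level in both channels with Eif4g3 siRNA below control siRNA throughout, Vegfb falls towards heavy polysomes, and the probes of Vegfa and Nrp1 run apart.

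**Figure D3:**
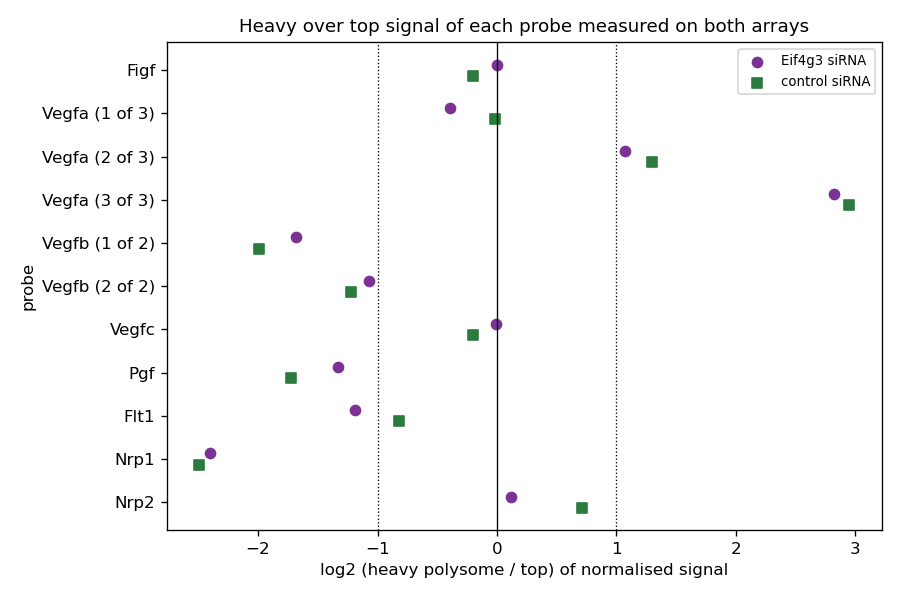
Log2 of heavy polysome over top signal (x axis) for the 11 member probes measured on both arrays (y axis), with Eif4g3 siRNA as circles and control siRNA as squares; dotted lines mark 2-fold. The 3 Vegfa probes spread from -0.39 to 2.82 with Eif4g3 siRNA, and the 2 siRNAs of Nrp2 lie at 0.12 and 0.71.

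The genes with ratios nearest to those of Figf over the 3 arrays, among 8381 named genes, were C1qtnf6, Nnmt, Atp6v0b, Ctla2a and Fkbp9. Their Euclidean distances from Figf were 0.22, 0.26, 0.28, 0.28 and 0.35 log2 units. C1qtnf6, which encodes a secreted C1q/TNF-related protein, had -0.86, -1.24 and -0.96 in the top, light and heavy fractions. Nnmt, encoding nicotinamide N-methyltransferase, had -1.02, -1.04 and -0.67. Atp6v0b, a subunit of the vacuolar proton pump, had -0.79, -1.11 and -0.83, and Fkbp9, an endoplasmic reticulum prolyl isomerase, had -1.05, -0.92 and -1.02. Ctla2a had -1.29, -1.13 and -0.73. Each of the 5 was read by 1 probe, as Figf was.

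Genes around the family were taken from 8 lists with 124 genes on the array. Of these, 85, 107 and 110 were measured in the top, light and heavy fractions. Past 2-fold higher were 0, 0 and 1, and past 2-fold lower 0, 1 and 3, with medians over the listed genes of -0.04, -0.01 and -0.14. Over all measured genes, 47 were higher and 29 lower of 10942 in the top fraction, 56 and 41 of 14094 in light polysomes, and 73 and 44 of 14402 in heavy polysomes. The medians of all measured genes were 0.002, 0.015 and -0.014, so about as many genes lay above 0 as below on each array. Counts by sign in the lists below are to be read beside that. The 1 higher gene and the 3 lower genes in heavy polysomes are named below.

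The list on oxygen sensing, which holds the hypoxia-inducible factors that control Vegfa transcription and targets of theirs, had 2 of the 3, both of them targets. Ddit4, a stress-induced inhibitor of mTORC1 signalling, had -0.07 ± 0.20 in the top fraction, -1.03 ± 0.22 in light polysomes and -1.46 ± 0.24 in heavy polysomes, and Adm, which encodes the vasodilator adrenomedullin, had -0.67 ± 0.23, -0.85 ± 0.22 and -1.03 ± 0.22. Hif1a, the oxygen-regulated factor subunit, had 0.12, 0.41 and -0.21. Over the list, 4 of 7 measured genes were below 0 in the top fraction, 8 of 11 in light polysomes and 9 of 11 in heavy polysomes, with medians of -0.03, -0.19 and -0.21.

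Among the proteases that process VEGFs or release them from the matrix, Plat, which encodes tissue plasminogen activator, had -0.90 ± 0.25, -0.48 ± 0.15 and -1.26 ± 0.17 and passed 2-fold in heavy polysomes. The matrix metalloproteinase gene Mmp3 had -0.20, -0.83 and -0.80. The proprotein convertase gene Pcsk6 lay the other way in light polysomes, with 0.21, 0.99 and 0.21. List medians were -0.17, -0.23 and -0.24 over 12, 13 and 14 measured genes.

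Of the vessel growth inhibitors, Cxcl10, a chemokine that restrains endothelial growth, had 0.77 ± 0.26, 0.95 ± 0.22 and 1.26 ± 0.24 and was the only listed gene past 2-fold higher in heavy polysomes. Timp3, which blocks metalloproteinases and VEGF binding to Kdr, had 0.64, -0.08 and -0.16. The medians of this list were -0.08, 0.20 and -0.16 over 9, 10 and 11 measured genes.

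The Tie receptor and angiopoietin list had 5 measured genes in heavy polysomes, and all 5 lay below 0, with a median of -0.55. Tie1 at -0.08 ± 0.28 and Angptl2 at -0.07 ± 0.12 were within their spot error there. In this list Angptl4, an inhibitor of lipoprotein lipase, had -0.40, -0.49 and -0.62, while Angptl2 had -0.01, 0.48 and -0.07. Tek, the receptor for angiopoietin-1, was above background only in heavy polysomes and in 1 channel, and so was Flt4, the receptor for VEGF-C and VEGF-D. In the list with Flt4 and lymphatic vessel genes, 3 of 4 measured genes were above 0 in light polysomes and 4 of 4 in heavy polysomes, with medians of 0.35 and 0.26. Foxc2, a transcription factor of lymphatic valves, had 0.36, 0.55 and 0.33 there. Prox1, the master regulator of lymphatic identity, had -0.15 ± 0.39 in light and 0.18 ± 0.35 in heavy polysomes. Both Prox1 values, and that of Pdpn in heavy polysomes (0.05 ± 0.14), were within their spot error.

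The remaining 3 lists had no gene past 2-fold on any array. In the relay of signals behind the VEGF receptors, the protein kinase C gene Prkcb1 (now Prkcb) had -0.09, -0.84 and -0.54 and the transcription factor gene Nfatc1 had 0.34, 0.47 and 0.31, with list medians of -0.02, 0.08 and -0.14. Of the semaphorins, plexins and Gipc1, which work with neuropilins, the receptor gene Plxnd1 had 0.08, -0.61 and -0.52, and Sema3a had 0.29 in light and 0.21 in heavy polysomes, with list medians of 0.00, 0.03 and -0.06. Of other vascular growth factors and receptors, the sphingosine-1-phosphate receptor gene Edg1 (now S1pr1) had -0.36, -0.78 and -0.29 and the Notch ligand gene Jag1 had 0.28, 0.39 and 0.08, with list medians of -0.04, -0.12 and -0.17.

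**Figure D4:**
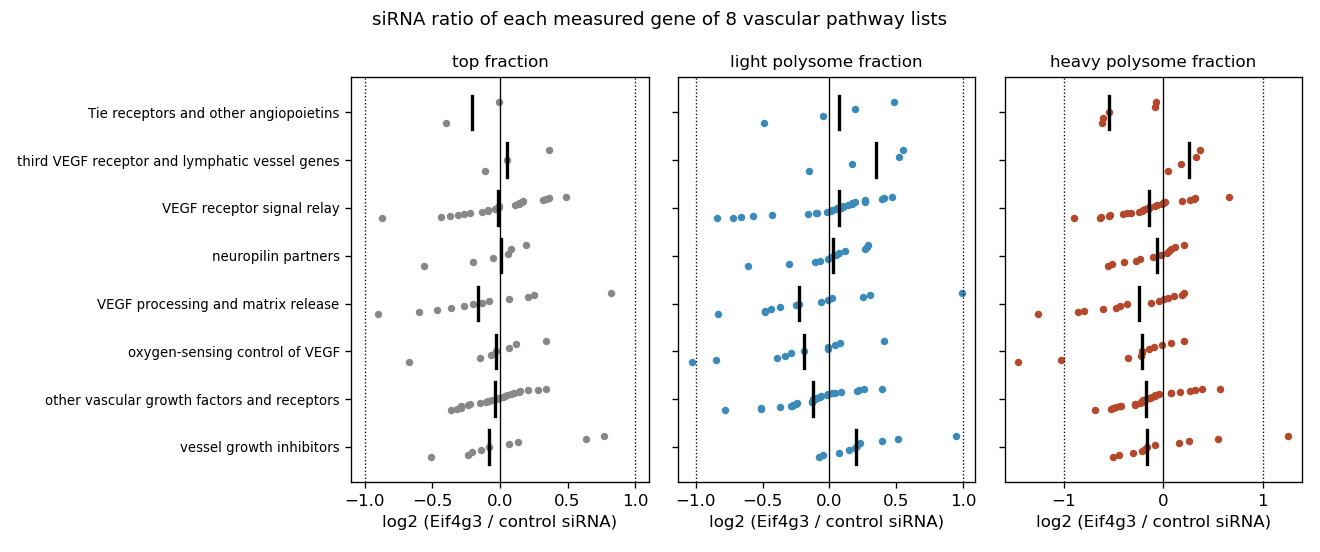
Ratio of the 2 siRNAs, Eif4g3 over control, on the log2 scale (x axis) of each measured gene in 8 vascular pathway lists (y axis), 1 panel per fraction; points are genes, black bars are list medians and dotted lines mark 2-fold. Most genes lie inside the dotted lines, with Ddit4 at -1.46 and Cxcl10 at 1.26 the farthest out in heavy polysomes.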

How the data were processed

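Per the file headers, Agilent Feature Extraction 10.5.1.1 made the deposited scanner tables, which give a linear intensity for each spot and channel, quality scores and flags. The same tables give a log10 ratio of red to green with an error, per the file headers. A value table deposited by the authors gives log2 ratios. They matched the log2 of processed red over green signals to within 2.8e-06, which settles scale and direction. Column medians were -0.0878, -0.0121 and 0.223 (top, light, heavy), and no source here states any further centring. Coordinates of probes are on mm8.

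Ratios were recomputed with limma 3.58.1 in R 4.3.3: normexp background correction with an offset of 50, loess within arrays, spots with outlier marks left out (220, 170 and 183; 0 were saturated). Spots were averaged per probe. A probe counted as measured when most of its kept spots were well above background in both channels, and a gene is the mean of its measured probes. Regressed on the software's ratios they had slopes of 0.58, 0.725 and 0.723, so values in the top fraction are the most compressed. Repeated spots had a median SD of 0.06, 0.05 and 0.09 and different probes of a gene one of 0.11, 0.16 and 0.15. The number of arrays limits the precision. Signals across arrays used loess followed by Aquantile. Steps were also run on simulated data, with red signals built from each array's green signals and a mild dye trend. Those data lacked the difference in brightness between channels of the light and heavy arrays, so they do not test how normalization dealt with it.

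Members and lists were chosen with earlier results of these data known. Named are all members, Eif4g3, the 5 genes nearest to Figf, and from each pathway list the highest and lowest gene in light polysomes and any past 2-fold. Marker genes were named beside these for the cell type. A GRCm38.p6 table held current symbols for 19611 of the 27745 names, and promoter sequences are RefSeq's on that build, found for 9 of the members. There were 11 alternatives for the ratios and 3 for the signals.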

Additional observations from a re-analysis of the deposited data

How the results depend on the processing

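Without loess and with arrays centred on the median of all probes, 2 members passed 2-fold in light polysomes (Vegfa and Vegfb), 2 in heavy polysomes (Figf and Nrp2), 3 in heavy minus top (Vegfa, Flt1 and Nrp2) and 7 in heavy minus light (all measured on both arrays except Flt1), and Figf was -0.32 in light and -1.77 in heavy polysomes. That setting moved the median of all measured genes to 0.62 in light and -0.73 in heavy polysomes, so the shift is shared by most genes. With the same arrays centred on measured probes, an alternative chosen after seeing the data, 0 members passed in light and 1 in heavy polysomes, and Figf was -0.95 in light polysomes. For signal in heavy polysomes over top with Eif4g3 siRNA, 3 members passed 2-fold under 75th percentile scaling (5 with control siRNA) and 3 with no filter on dim probes. With no such filter Nrp1 turned to 0.28 with Eif4g3 siRNA and 0.39 with control siRNA, since 2 more probes entered the mean. In the top fraction 1 member passed under all 11 alternatives, and Figf ranged from -1.12 to -1.03. Figf was below 0 on each array under all 11, but not all of these could differ, since Figf has 1 probe with 1 spot. Settings that select or average probes or spots could only return its main values. The software's ratio and the authors' values were equal to each other. Other signs were less stable: Nrp1 in heavy polysomes took the other sign under 4 of 11, and Pgf in heavy and Nrp2 in light polysomes under 2 each. No paired analysis was possible because there is 1 array per fraction. Kdr, Angpt1 and most Flt1 probes are limited by signal near background.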
